A study of Mus musculus with 15 samples.

Results

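Motor neurons of mice with spinal muscular atrophy (SMA) were compared after treatment with MW150, a small molecule inhibitor of the stress kinase p38α, and after treatment with Pifithrin-alpha, a small molecule inhibitor of the transcription factor p53. The comparison rests on 6 of the 15 libraries of the series, 3 for each compound, chosen by the treatment the labels give. Neurons of lumbar segments L1 to L3 had taken up cholera toxin subunit B, a tracer that travels back along the axon, and were cut out by laser-capture microdissection at postnatal day 6. All mice were on an FVB background and carried the human SMN2 gene and the SMNΔ7 transgene. The group called SMA lacked mouse Smn (Smn-/-;SMN2;SMNΔ7) and received vehicle. The group called WT consisted of littermates with both Smn alleles (Smn+/+;SMN2;SMNΔ7), also on vehicle. SMA+MW150 and SMA+Pifithrin-alpha had the SMA genotype and were injected intraperitoneally every day from postnatal day 0, with MW150 at 5 mg/kg or Pifithrin-alpha at 2.2 mg/kg. A further 3 libraries of SMA mice given SMN-C3 at 3 mg/kg, a modifier of SMN2 splicing, entered only the estimate of the spread. Each compound was given at 1 dose, and the doses differ, so differences are between these 2 regimens. The labels say that males and females were used in equal proportions and do not give the number of mice behind a library, so p-values measure the spread between these samples.

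SMA follows from too little SMN, a protein that assembles the RNA-protein particles of the splicing machinery, and motor neurons are the cells that die. In stressed cells p38 is switched on by kinases above it, and it phosphorylates many proteins, p53 among them. Stabilised p53 then drives transcription of genes for cell cycle arrest, cell death and its own feedback inhibitor Mdm2. The compounds thus act at different levels of 1 pathway, MW150 above p53 and Pifithrin-alpha at p53, and the comparison asks where the transcriptomes under the 2 treatments agree and where they differ.

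Values are TPM, transcript abundances per length that add up to the same total in every library, brought to a common scale between libraries and called scaled TPM below. Differences are on the scale of log2(scaled TPM + 1), which understates changes of low genes, and come from limma fitted to all 15 libraries. Genes that reached 1 TPM in 3 or more libraries were tested (15425), and an adjusted p under 0.05 (Benjamini-Hochberg, over all of them) counts as a call. Replicate values are given in the order 1, 2, 3, a mean is followed by its SD (n = 3), and every adjusted p of a gene is from limma.

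The library of the third Pifithrin-alpha sample stood apart. Its correlation with the other 5 treated libraries, over genes, was 0.904 to 0.943, while the 3 MW150 libraries correlated at 0.970 to 0.973 among themselves. Pifithrin-alpha 1 correlated with the MW150 libraries at 0.968 to 0.973, as closely as they did with each other, and with Pifithrin-alpha 2 and 3 at 0.960 and 0.908. Transcripts encoded by the mitochondrial genome made up 7.52%, 5.68% and 5.99% of TPM with MW150 and 5.78%, 12.6% and 20.4% with Pifithrin-alpha. The number of genes at 1 TPM or more was 14576, 14065 and 14445 with MW150 and 14474, 13585 and 12311 with Pifithrin-alpha. One vehicle library, WT 1, also had a high mitochondrial share, 21.9%. An exact two-sided permutation test of 3 libraries against 3 cannot go below p = 0.1, and it gave p = 0.3 for the mitochondrial share and p = 0.3 for the gene number. List medians are therefore given with and without Pifithrin-alpha 3, and so are the differences of some of the genes nearest to a call. Markers of the labelled cell type were present. Nefm (neurofilament medium chain) read 3963 to 6704 and Chat (choline acetyltransferase) 58.9 to 105 scaled TPM in the 6 treated samples. All 22 motor neuron genes of the list passed the filter over the 15 libraries. So did 14 of 14 astrocyte, 15 of 15 oligodendrocyte lineage and 15 of 16 microglial markers, so passing it does not identify the cell type. The targeted gene followed the genotype labels. Smn1 read 11.2, 17.8 and 21.96 scaled TPM in WT, 1.24, 0.145 and 0.215 with MW150 and 0.369, 0.728 and 0.341 with Pifithrin-alpha.

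**Figure D1:**
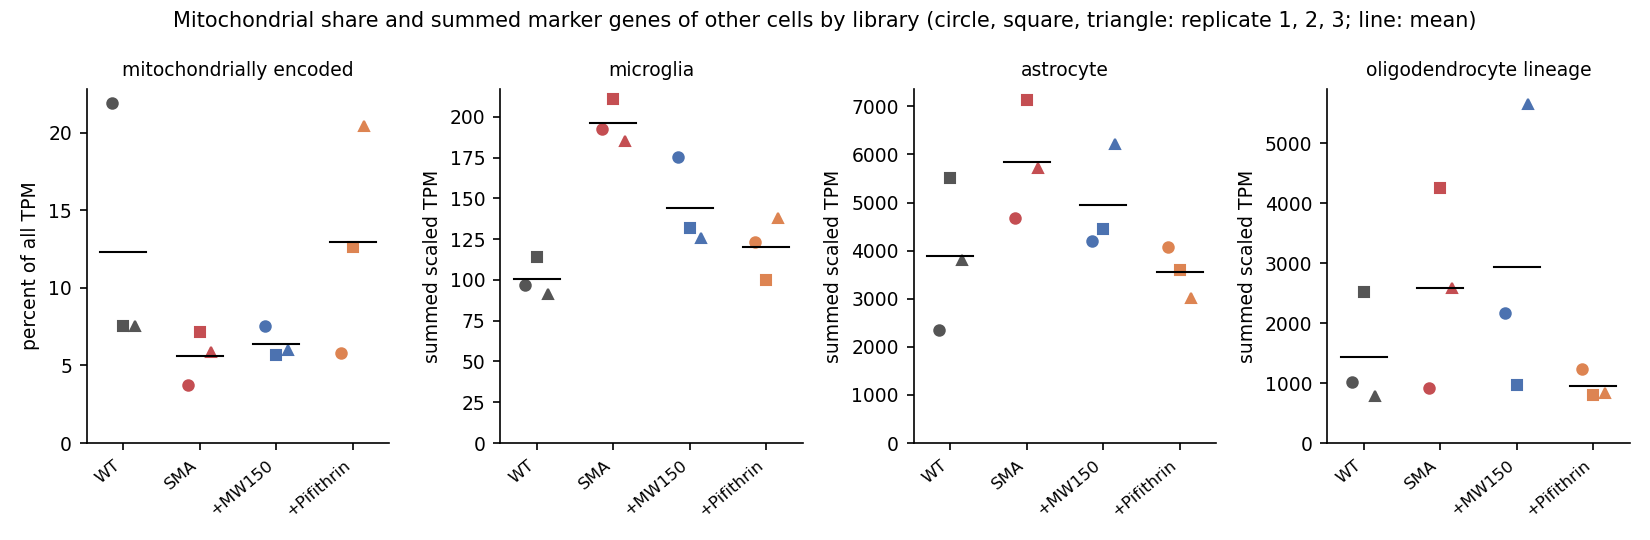
Share of TPM from mitochondrially encoded genes and summed scaled TPM of microglial, astrocyte and oligodendrocyte lineage markers, by group (x axis) and library; symbols are replicates 1 to 3 and lines are means. The mitochondrial share of Pifithrin-alpha 3 (20.4%) lies above all 3 MW150 libraries, and the oligodendrocyte sum is widest among the MW150 libraries.

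No gene differed between MW150 and Pifithrin-alpha at the threshold: 0 of 15425 were called (0%), and the smallest adjusted p was 0.58. Without adjustment, 1319 genes had p under 0.05 (8.55% of those tested), 502 of them higher with MW150 (3.25%) and 817 higher with Pifithrin-alpha (5.3%). Of these 817 genes, 776 (95%) had their highest value in Pifithrin-alpha 3, against 33.7% of all tested genes. Of the 502 genes, 308 (61.4%) had their lowest value in Pifithrin-alpha 3, against 33.1% of all tested genes. The shares of all tested genes cover both directions. Choosing genes by direction already favours such an extreme in a Pifithrin-alpha library, so these shares are not a like baseline. Without that library 321 genes had an unadjusted p under 0.05, and without Pifithrin-alpha 1 the number was 2872. The absence of calls does not show that the treatments act alike. The 95% interval of the difference reached a median of 0.79 log2 units to either side, and it lay within 1 of zero, a 2-fold difference, for 5661 genes (36.7%).

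What the 2 treated groups had in common was clearest against WT. The mean of both treatments differed from WT for 35 genes (0.227% of those tested), of which 33 were higher (0.214%) and 2 were lower (0.013%), Smn1 and Cstad. Before adjustment 1065 genes had p under 0.05 (6.9%). Most of the 33 were also raised under vehicle: 28 were called higher in SMA than in WT, against 0.285% of all tested genes. The median of the 33 stood 2.72 above WT in SMA, 2.34 with MW150 and 2.36 with Pifithrin-alpha (log2). These 3 values share their WT libraries. The calls behind the overlap of 28 also share them, and the estimate of the spread, which favours the same genes in both. The lists of p53 targets and regulators held 10 of the 33 genes. These were 9 of 41 targets and 1 of 15 regulators tested, beside 0.214% of all tested genes. The lists were chosen with earlier results of these data known. Without WT 1 the number called was 21, of which 18 were among the 35. As the contrast selects for, all 33 genes had every MW150 library above every WT library and every Pifithrin-alpha library above every WT library. Between the treatments the same 33 genes differed by -0.96 to 1.04 (log2), with a median of 0.08 beside 0.04 for all tested genes, and of -0.04 without Pifithrin-alpha 3. The interval of that difference included zero for 31 of them and lay within 1 of zero for 9.

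**Figure D2:**
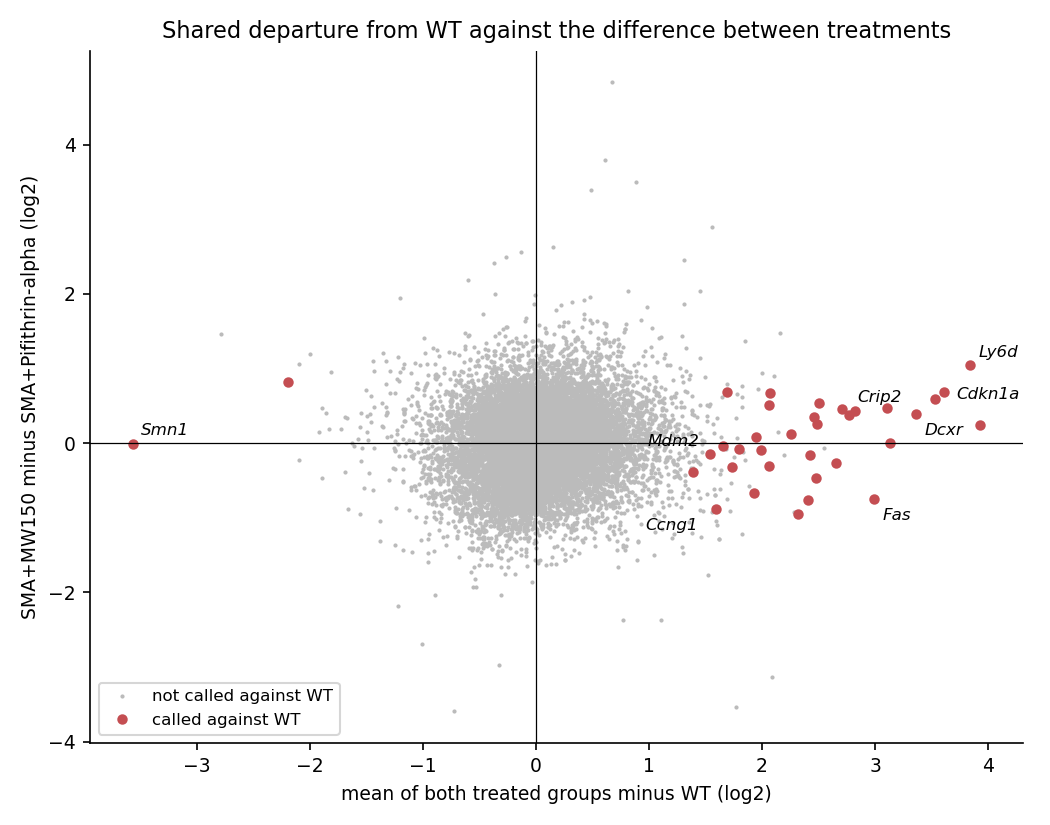
Each point is a tested gene; the x axis is the mean of both treated groups minus WT and the y axis is MW150 minus Pifithrin-alpha, both in log2 units of scaled TPM + 1. The 33 genes called higher than WT (red, right) lie between -0.96 and 1.04 on the y axis.

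Cdkn1a encodes p21, an inhibitor of cyclin-dependent kinases and a classical p53 target, and it had the highest level of the p53 targets in TPM. It read 44.8, 51.0 and 42.1 scaled TPM in WT, 1347, 1009 and 529 in SMA, 925, 800 and 513 with MW150 and 578, 508 and 313 with Pifithrin-alpha. All treated values lay above all WT values, and the 2 treated groups overlapped. The mean of both treatments was 3.61 ± 0.28 (SE) log2 units above WT (adjusted p 3.5e-06). MW150 stood 0.68 above Pifithrin-alpha, with an interval of 0.01 to 1.36, an unadjusted p of 0.0485 and an adjusted p of 0.58, and 0.42 above it without Pifithrin-alpha 3.

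The promoters of 3 of these 33 genes held a close match to a p53 response element, 2 decamers without a spacer, at most 2 mismatches and the central C and G of each decamer exact. The element is its own reverse complement, so that 1 scan covers both strands. RefSeq promoters of GRCm38.p6, from 250 bases before to 50 bases after the start, were matched for 26 of the 33 genes, and 3 of their 32 promoters held the pair (9.38%), against 107 of 32851 promoters in all (0.326%). A match is a description of the letters, and no binding was measured. Below are the 3 matches, 5′ to 3′ on the gene's strand, with the decamer pair in capitals and, for Cdkn1a and Ccng1, the flanking bases. They are shown because the 3 genes that carry them sat at different places in the comparison: Cdkn1a was nominally higher with MW150, Ccng1 nominally higher with Pifithrin-alpha, and Gtse1 near zero.
Cdkn1a, chr17:29090908-29090967, plus strand, 1 mismatch, pair starting at -51: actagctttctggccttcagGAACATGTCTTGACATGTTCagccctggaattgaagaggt
Ccng1, chr11:40755442-40755501, minus strand, 1 mismatch, pair starting at -195: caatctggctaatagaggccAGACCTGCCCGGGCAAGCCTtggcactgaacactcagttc
Gtse1, chr15:85859945-85859964, plus strand, 1 mismatch, pair starting at -1: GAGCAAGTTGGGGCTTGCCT

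Ccng1, which encodes cyclin G1, a p53 target that acts on Mdm2, went the other way from Cdkn1a. It read 26.8, 13.4 and 21.2 scaled TPM in WT, 53.4, 44.6 and 38.5 with MW150 and 54.7, 86.0 and 125 with Pifithrin-alpha. The treated groups did not overlap, although Pifithrin-alpha 1 and MW150 1 were close, at 54.7 and 53.4. MW150 stood 0.88 below Pifithrin-alpha, with an interval of -1.59 to -0.17, an unadjusted p of 0.0184 and an adjusted p of 0.58, and the difference was -0.59 without Pifithrin-alpha 3. Both treatments together were 1.60 ± 0.29 (SE) above WT (adjusted p 0.022), a call that was lost without WT 2 (adjusted p 0.192) and also without WT 3, MW150 1, MW150 2 or Pifithrin-alpha 2. Gtse1, expressed in the S and G2 phases and a negative regulator of p53, read 8.45, 6.28 and 4.37 with MW150 and 7.53, 4.88 and 5.22 with Pifithrin-alpha, against 0.686 to 1.07 in WT. Its difference between treatments was 0.08, with an interval of -0.67 to 0.84.

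Trp53 and its regulators were not called between the treatments. Trp53, the gene of p53 (chr11:69580359-69591873), read 28.6, 41.9 and 31.5 scaled TPM with MW150 and 35.2, 32.5 and 22.9 with Pifithrin-alpha, beside 14.8 to 17.6 in WT and 31.3 to 47.4 in SMA. The difference was 0.17, with an interval of -0.44 to 0.78. Mdm2, the ubiquitin ligase that p53 induces and that degrades p53 (chr10:117688875-117710758), read 41.4, 27.9 and 34.3 with MW150 and 37.0, 32.6 and 45.4 with Pifithrin-alpha, and the groups overlapped. Mdm2 was the 1 regulator of 15 tested that was called against WT, at 1.54 ± 0.24 (SE) above it (adjusted p 0.0085, and 0.0612 without WT 2), and its difference between treatments was -0.15 with an interval of -0.75 to 0.45. Its paralogue Mdm4, which blocks p53 without degrading it, differed by 0.00 with an interval of -0.86 to 0.86. Hipk2, a kinase that phosphorylates p53, read 15.01, 12.97 and 18.1 with MW150 and 13.7, 7.87 and 4.24 with Pifithrin-alpha, which is a difference of 0.88 (unadjusted p 0.0315) and of 0.51 without Pifithrin-alpha 3. The median over the 15 regulators was -0.07, and -0.01 without Pifithrin-alpha 3.

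Of 41 p53 targets tested, 21 were higher with MW150 and 20 lower, with a median difference of 0.03, and of -0.05 without Pifithrin-alpha 3. The groups did not overlap for 5 targets with MW150 above and 6 with MW150 below, that is 26.8% of the list against 14.7% of all tested genes. Against WT the median target stood 0.86 higher with MW150 and 0.63 higher with Pifithrin-alpha, beside 1.02 in vehicle-treated SMA. Against SMA it stood at -0.26 with MW150 and -0.23 with Pifithrin-alpha. These pairs of values share their WT or SMA libraries and are given side by side for that reason. Of the list, 9 targets were called higher than WT in the mean of both treatments, where 0.214% of all tested genes were.

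Among 13 targets that act in cell death, 5 were called above WT (0.214% of all tested genes were), and the median difference between treatments was -0.03 with and without Pifithrin-alpha 3. Fas, a death receptor on the cell surface, read 16.4, 14.2 and 12.4 scaled TPM with MW150 and 12.9, 22.6 and 50.4 with Pifithrin-alpha. The groups overlapped, and the difference of -0.75 (interval -1.91 to 0.41) was -0.25 without Pifithrin-alpha 3. Its call against WT (adjusted p 0.0085), where WT 1 was listed at 0, was lost without WT 1 (adjusted p 0.0527). Pmaip1, which encodes the BH3-only protein Noxa, read 8.43, 7.10 and 8.79 with MW150 and 9.56, 14.4 and 21.6 with Pifithrin-alpha. Every Pifithrin-alpha library lay above every MW150 library, with a difference of -0.77 and an interval of -1.81 to 0.27. Its call against WT (adjusted p 0.018) was lost without WT 2 (adjusted p 0.135) and also without WT 1, MW150 1, MW150 3 or Pifithrin-alpha 2.

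Aen, a nuclease induced in apoptosis, read 85.6, 94.5 and 71.7 with MW150 and 91.3, 79.6 and 87.6 with Pifithrin-alpha. Its difference was -0.04, with an interval of -0.72 to 0.63. Perp, a membrane protein of p53-dependent death, differed by -0.67 (interval -1.49 to 0.14) and Pidd1, a scaffold that activates a caspase, by 0.12 (interval -0.90 to 1.14). The pore former Bax and the BH3-only Bbc3, or Puma, were not called against WT (adjusted p 0.76 and 0.65). Bax differed between treatments by 0.23 (interval -0.28 to 0.74) and Bbc3 by 0.61 (interval -0.22 to 1.43), which became 0.06 and 0.28 without Pifithrin-alpha 3.

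Among 11 targets that arrest the cell cycle, 4 were called above WT (0.214% of all tested genes were), namely Cdkn1a, Ccng1, Gtse1 and Plk2. Their list's median difference between treatments was 0.08, and -0.05 without Pifithrin-alpha 3. Plk2, a polo-like kinase with roles at synapses, read 21.1, 24.2 and 24.6 with MW150 and 33.3, 25.9 and 28.7 with Pifithrin-alpha. The groups did not overlap, but the difference was -0.31 with an interval of -0.92 to 0.29. Among 17 targets of repair, metabolism and growth control none was called against WT (0.227% of all tested genes were). The median difference of these targets between treatments was 0.15, which turned to -0.05 without Pifithrin-alpha 3. The smallest unadjusted p of these was that of Slc19a2, a thiamine transporter, which read 20.3, 23.2 and 21.4 with MW150 and 27.1, 31.4 and 65.0 with Pifithrin-alpha (difference -0.79, unadjusted p 0.0204, and -0.42 without Pifithrin-alpha 3). Phlda3, an inhibitor of Akt, differed by 0.30, and Eda2r, a receptor of the tumour necrosis factor family, by -0.03.

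The other genes with the smallest p against WT were mostly outside the p53 lists. Dcxr, a carbonyl and xylulose reductase, read 12.8 to 21.4 scaled TPM in WT, 197, 206 and 174 with MW150 and 156, 187 and 107 with Pifithrin-alpha. It stood 3.37 ± 0.26 (SE) above WT (adjusted p 3.5e-06) and differed between treatments by 0.39, with an interval of -0.25 to 1.03. The uncharacterised gene 1700007K13Rik read 71.98, 69.3 and 54.1 with MW150 and 52.9, 64.9 and 77.8 with Pifithrin-alpha, against 4.81 to 8.08 in WT. Its difference between treatments was 0.01, with an interval of -0.73 to 0.74.

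Crip2, a LIM domain protein, read 164, 192 and 144 with MW150 and 145, 154 and 91.4 with Pifithrin-alpha, against 15.9 to 27.3 in WT. Ly6d, a membrane-anchored protein of the Ly6 family, was listed at 0 in all 3 WT libraries. It passed the filter only through libraries of the other groups, so its call against WT is no evidence by itself. It read 19.2, 14.8 and 26.3 with MW150 and 9.41, 13.8 and 5.48 with Pifithrin-alpha, so that MW150 lay above Pifithrin-alpha in every library, by 1.04 with an interval of -0.08 to 2.17. Acaa1b, a peroxisomal thiolase, read 7.97 to 14.6 with MW150 and 6.20 to 8.70 with Pifithrin-alpha, and 0 to 0.883 in WT. The limit given for Ly6d holds for Acaa1b too. Abhd11os, a non-coding gene that overlaps Abhd11 on the other strand, was also called, and whether reads were counted by strand is not given in the sources used here.

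Against vehicle-treated SMA the 2 treatments shared little that passed the test. The mean of both treatments was called for 1 of 15425 genes (0.00648%), with 706 at p under 0.05 before adjustment (4.58%). The gene was Traj45, a joining segment of the T cell receptor alpha locus, which read 5.92, 7.30 and 6.64 scaled TPM in the SMA libraries and was listed at 0 in all libraries of the other groups. It passed the filter only through the 3 SMA libraries in which it was high, so its call is no evidence for a change that the treatments share. Taken alone, MW150 against SMA gave 282 genes with an unadjusted p under 0.05 (1.83%) and Pifithrin-alpha against SMA gave 1724 (11.2%). Both numbers use the same SMA libraries, and the second one includes Pifithrin-alpha 3. Cdkn1a lay 0.65 below SMA in the mean of both treatments, with an unadjusted p of 0.032 and an adjusted p of 0.87.

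Genes that SMA itself had moved were read separately. The difference that chose them was between WT and SMA libraries, whose means do not enter the difference between treatments. Both contrasts share the estimate of the spread, which used all 15 libraries. For the 44 genes called higher in SMA than in WT (0.285%), the median of MW150 minus Pifithrin-alpha was 0.25, and 29 were higher with MW150. Their groups did not overlap for 8 genes with MW150 above and 2 with MW150 below, or 22.7% against 14.7% of all tested genes. Without Pifithrin-alpha 3 the median was 0.06 and 23 genes were higher with MW150. Of a wider set of 322 genes raised in SMA (unadjusted p under 0.01 and at least 2-fold), 223 were higher with MW150 (69.3%, against 53.1% of all genes), with a median of 0.24, and of 0.11 without Pifithrin-alpha 3. Of 144 genes lowered in SMA by the same rule, 103 were lower with MW150, with a median of -0.32, and of -0.14 without Pifithrin-alpha 3. In both wide sets the median gene thus lay nearer to WT with Pifithrin-alpha: the raised genes stood 1.04 above WT with MW150 and 0.83 with Pifithrin-alpha, the lowered genes at -0.87 and -0.50. WT 1 and Pifithrin-alpha 3 share a high mitochondrial share, and the part of this in the lowered set was not tested.

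Within the called set the gene furthest apart was Bglap2, an osteocalcin gene, at 6.55, 7.10 and 5.69 scaled TPM with MW150 and 3.72, 0.952 and 1.07 with Pifithrin-alpha (difference 1.47, unadjusted p 0.0241, adjusted p 0.58). It has near-identical neighbouring copies, so its value is uncertain. Tspo, a protein of the outer mitochondrial membrane that is widely used as a marker of activated microglia, read 18.8, 19.4 and 20.1 with MW150 and 7.63, 11.5 and 6.35 with Pifithrin-alpha. The groups were far apart relative to their spread, with a difference of 1.14 (interval 0.30 to 1.98, unadjusted p 0.0106, adjusted p 0.58), which was 0.97 without Pifithrin-alpha 3. WT read 3.20 to 5.41 and SMA 10.6 to 40.7.

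The p38 cascade was read for transcripts only, since kinase activity was not measured. Of its 43 listed genes 41 were tested and none was called, between the treatments or for their mean against WT or SMA. Calls were rare over all tested genes too, at 0% between the treatments, 0.227% against WT and 0.00648% against SMA. The median difference of the list between treatments was 0.11, and 0.00 without Pifithrin-alpha 3. Mapk14, which encodes p38α (chr17:28691329-28748406), read 7.61, 9.70 and 15.4 with MW150 and 11.5, 7.49 and 6.08 with Pifithrin-alpha, a difference of 0.34 with an interval of -0.35 to 1.03. Mapk11, p38β, read 8.48, 11.4 and 12.5 with MW150 and 17.2, 4.72 and 3.87 with Pifithrin-alpha, where 1 library lay above and the others below all MW150 values.

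Above p38, the activating kinases Map2k3 and Map2k6 differed by 0.03 and -0.47, with intervals that included zero. Map3k7, the kinase TAK1, read 5.40, 3.97 and 5.75 with MW150 and 6.26, 7.69 and 12.3 with Pifithrin-alpha, without overlap (difference -0.65, unadjusted p 0.0515). Below p38, Mapkapk2, its main downstream kinase, differed by 0.20 (interval -0.61 to 1.004). Hspb1, the small heat shock protein phosphorylated by that kinase, had the smallest p of the cascade, at 49.1, 95.2 and 76.5 with MW150 and 60.7, 36.5 and 23.8 with Pifithrin-alpha. Its difference was 0.90 (interval 0.15 to 1.66, unadjusted p 0.0221, adjusted p 0.58), or 0.58 without Pifithrin-alpha 3, and the groups overlapped. Of the phosphatases that switch p38 off, Dusp10 was even within each group, at 7.85, 8.04 and 7.21 with MW150 and 10.8, 10.4 and 10.03 with Pifithrin-alpha, a difference of -0.39 with an interval of -1.05 to 0.26, and Dusp1 differed by -0.33.

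Immediate early genes, which respond to stress kinases, leaned to MW150 without passing the test: 11 of 12 were higher with it, with a median of 0.31, and 9 of 12 without Pifithrin-alpha 3, with a median of 0.25. Fos read 36.8, 37.8 and 28.2 with MW150 and 17.3, 26.8 and 42.8 with Pifithrin-alpha (difference 0.31, interval -0.46 to 1.08). Jun, its partner in AP-1, differed by 0.15 (interval -0.34 to 0.64). Myc had the smallest p of the list, at 7.40, 10.3 and 9.16 with MW150 and 6.39, 6.12 and 2.84 with Pifithrin-alpha (difference 0.75, unadjusted p 0.0477). Atf3, a stress-induced factor, was high in MW150 2 alone, at 9.72, beside 0.700 to 2.35 in the other 5 treated libraries. Of the inflammatory mediators 6 could be tested, none with an unadjusted p under 0.05, beside 8.55% of all tested genes. Their median was 0.36, or 0.30 without Pifithrin-alpha 3. The integrated stress response, another branch of stress signalling, had a median of 0.01 over 19 genes, and of -0.01 without that library.

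Pifithrin-alpha is also known to bind the aryl hydrocarbon receptor, and 4 genes of that receptor passed the filter. Of these, 2 were higher and 2 lower with MW150, with a median of -0.18, and of -0.31 without Pifithrin-alpha 3. Tiparp, a target and repressor of the receptor, read 6.83, 6.31 and 5.99 scaled TPM with MW150 and 9.28, 13.8 and 25.5 with Pifithrin-alpha. All Pifithrin-alpha libraries lay above all MW150 libraries, with a difference of -1.11 (interval -1.94 to -0.28, unadjusted p 0.0117, adjusted p 0.58), and of -0.74 without Pifithrin-alpha 3. WT libraries read 7.63 to 13.8, and Tiparp overlaps 4931440P22Rik on the other strand. The receptor gene Ahr differed by -0.45 (interval -1.27 to 0.37), and Nqo1, another target, by 0.10 (interval -0.79 to 0.98). Arnt, the partner of the receptor, was higher with MW150, but its sign changed under 4 of 19 alternatives. The classical target Cyp1b1 did not reach the filter and read at most 0.272 scaled TPM in any library.

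The genes nearest to a difference were taken by a rule: a mean of at least 5 scaled TPM, treated groups that do not overlap, and the 10 smallest p-values in each direction, with adjusted p 0.58 for each. Among those higher with MW150 was Ccs, the copper chaperone of superoxide dismutase 1 (chr19:4825366-4839332). It read 42.7, 43.9 and 55.7 with MW150 and 25.4, 27.5 and 26.1 with Pifithrin-alpha, beside 35.7 to 53.6 in WT and 48.4 to 57.6 in SMA. All Pifithrin-alpha values lay below all MW150, WT and SMA values, with a difference of 0.82 (interval 0.35 to 1.29, unadjusted p 0.00197), which was 0.81 without Pifithrin-alpha 3.

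Pradc1, a secreted glycoprotein gene that overlaps Cct7 on the other strand, read 23.2, 22.8 and 27.5 with MW150 and 14.3, 10.5 and 10.6 with Pifithrin-alpha. It had the smallest p of the 20 genes (difference 1.001, interval 0.504 to 1.498, unadjusted p 0.000557), and WT read 27.3 to 34.8. Csad, which makes a precursor of taurine, read 29.4, 26.5 and 29.9 with MW150 and 15.2, 12.9 and 12.9 with Pifithrin-alpha, a difference of 1.02, or 0.98 without Pifithrin-alpha 3. The actin regulators Gsn and Arpc1b and the transcriptional inhibitor Id3 differed by 1.66, 1.62 and 1.53. All 3 were highest in MW150 3, the library with the highest sum of oligodendrocyte markers, and whether other cells carry their difference was not tested.

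Genes higher with Pifithrin-alpha had another pattern: all 10 were highest in Pifithrin-alpha 3, while 6 of the 10 higher with MW150 were lowest there. Groups that do not overlap place each of these extremes in some Pifithrin-alpha library. Rbbp6, a ubiquitin ligase that binds p53 and the retinoblastoma protein, read 16.5, 12.4 and 16.04 with MW150 and 21.1, 42.6 and 55.9 with Pifithrin-alpha (difference -1.26, unadjusted p 0.00112, and -0.97 without Pifithrin-alpha 3). Rfk, riboflavin kinase, read 88.9, 101 and 92.1 with MW150 and 111, 223 and 720 with Pifithrin-alpha. Its difference was -1.47, and -0.74 without that library. Mat2b, a subunit of methionine adenosyltransferase, read 23.3, 30.9 and 32.0 with MW150 and 44.1, 47.6 and 77.8 with Pifithrin-alpha (difference -0.92, and -0.67 without Pifithrin-alpha 3). Htr1b, a serotonin receptor, read 4.68, 3.37 and 3.87 with MW150 and 5.99, 11.7 and 24.7 with Pifithrin-alpha, beside 2.85 to 5.57 in SMA and 7.01 to 11.7 in WT. The other 6 were Riok2, Seh1l, Ptp4a2, Crk, Nrsn1 and Nckap1, with differences from -0.92 (Crk) to -1.49 (Riok2).

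**Figure D3:**
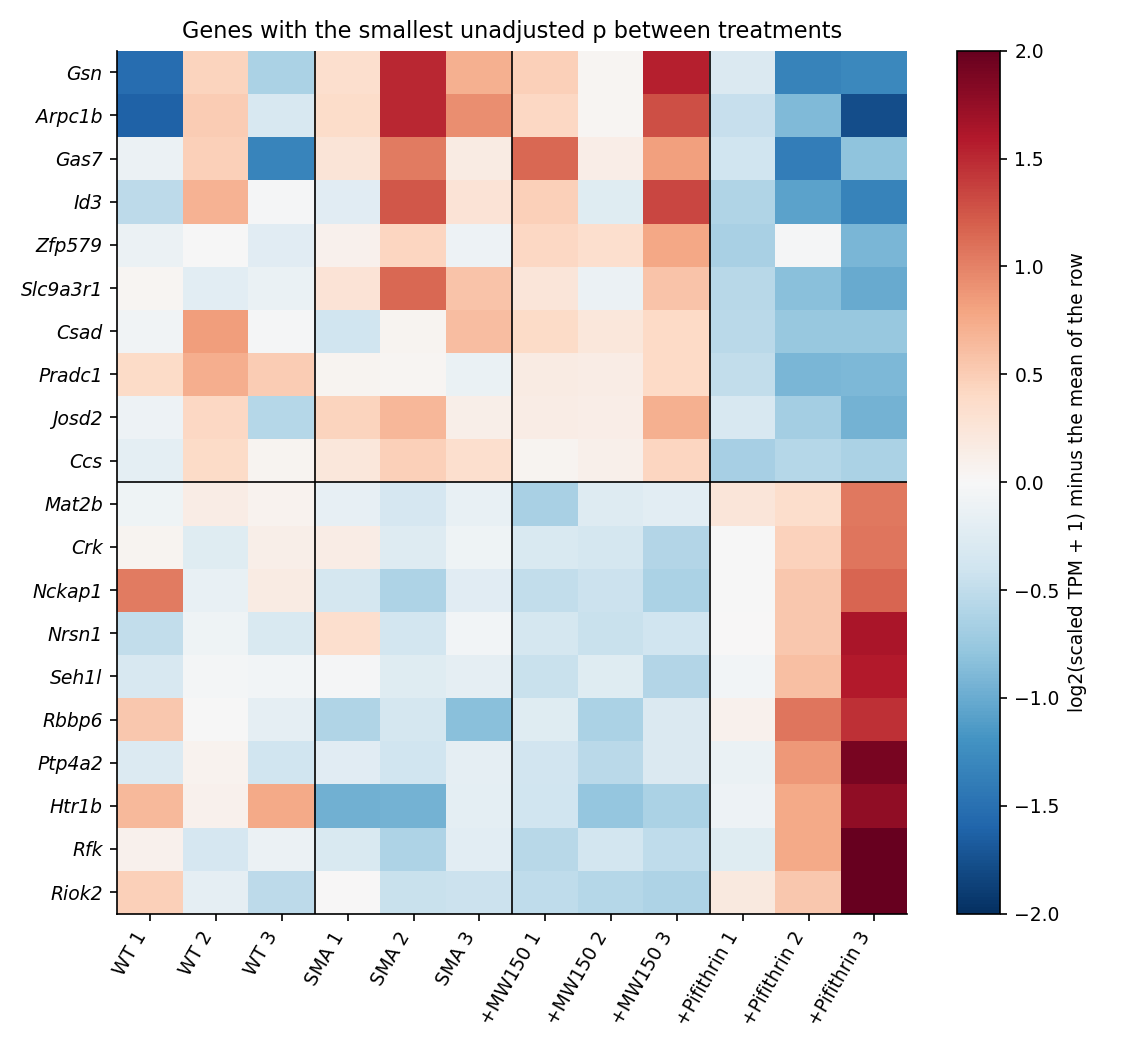
Each row is 1 of the 20 genes (10 higher with MW150 above the line, 10 higher with Pifithrin-alpha below it) and each column a library; colour is log2(scaled TPM + 1) minus the mean of the row. Below the line the darkest red of the Pifithrin-alpha columns is in replicate 3, for all 10 genes, and replicate 1 is nearer to the MW150 columns.

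Markers of motor neuron identity had a median difference of 0.01 over 22 genes, with 12 higher and 10 lower with MW150, and of -0.06 without Pifithrin-alpha 3, with 7 higher. Chat read 95.3, 105 and 88.3 with MW150 and 90.2, 75.8 and 58.9 with Pifithrin-alpha (difference 0.37, interval -0.09 to 0.83), and Mnx1, a motor neuron transcription factor, differed by 0.03 (interval -0.49 to 0.55). Chodl, a marker of fast motor neurons, was the exception by unadjusted p, at 312, 197 and 159 with MW150 and 271, 361 and 1246 with Pifithrin-alpha. Its difference of -1.21 (unadjusted p 0.0228) was -0.55 without Pifithrin-alpha 3, and WT read 515 to 724. Of 18 ion channel genes 0 had an unadjusted p under 0.05, beside 8.55% of all tested genes. Their median was -0.04, or -0.08 without Pifithrin-alpha 3. Of 16 genes of vesicle release 10 were higher with MW150, with a median of 0.13, and 5 without Pifithrin-alpha 3, with a median of -0.05. The smallest p among them was that of a gene higher with Pifithrin-alpha. Snap25, a fusion protein of the synapse, read 881, 889 and 804 with MW150 and 972, 1622 and 3618 with Pifithrin-alpha (difference -1.06, unadjusted p 0.011, and -0.55 without Pifithrin-alpha 3). Of the SMN complex 7 of 9 genes were lower with MW150, with a median of -0.37, and of -0.14 without that library.

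Every list of markers of other cells had a median above zero, and none of their genes was called. In bulk samples fewer cells of a type and less RNA per cell cannot be told apart. Of 15 microglial markers tested 12 were higher with MW150, 7 with an unadjusted p under 0.05, beside 3.25% of all tested genes. Their median was 0.84, and 0.54 without Pifithrin-alpha 3. The groups did not overlap for 6 of the 15 with MW150 above and for 1 with MW150 below, beside 7.86% and 6.81% of all tested genes. Cx3cr1, the fractalkine receptor, read 3.22, 3.52 and 4.93 with MW150 and 1.49, 0.979 and 2.18 with Pifithrin-alpha, with SMA at 3.09 to 4.86 and WT at 2.07 to 2.52 (difference 0.95, unadjusted p 0.00791, adjusted p 0.58). C1qa, a complement component, read 10.9, 10.9 and 8.23 with MW150 and 8.78, 4.88 and 1.79 with Pifithrin-alpha (difference 1.01). The summed markers ranged from 126 to 175 scaled TPM with MW150, 100 to 138 with Pifithrin-alpha, 185 to 211 in SMA and 91.1 to 114 in WT, with an exact two-sided permutation p of 0.4 between the treatments.

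All 15 markers of the oligodendrocyte lineage were higher with MW150, 4 with an unadjusted p under 0.05, beside 3.25% of all tested genes. Their median was 1.08, and 0.88 without Pifithrin-alpha 3. Mag, a myelin glycoprotein, read 96.5, 49.9 and 235 with MW150 and 39.3, 26.7 and 35.5 with Pifithrin-alpha (difference 1.61, unadjusted p 0.0108, adjusted p 0.58). The summed markers were 2176, 971 and 5659 with MW150 and 1241, 800 and 827 with Pifithrin-alpha, with an exact permutation p of 0.2. Of 14 astrocyte markers 11 were higher with MW150, with a median of 0.29, and of 0.23 without Pifithrin-alpha 3. Their sum was 4198 to 6218 with MW150 and 3014 to 4069 with Pifithrin-alpha, without overlap, at the exact permutation p of 0.1 that is the smallest 3 against 3 allow. The remaining lists leaned the same way by their medians. Red blood cell markers had a median of 0.40 (5 of 5 higher), spinal interneuron markers of 0.31 (4 of 5 higher) and vascular markers of 0.28 (7 of 11 higher), which were 0.49, 0.61 and 0.10 without Pifithrin-alpha 3. The summed spinal interneuron markers went the other way, at 33.3 ± 3.9 with MW150 and 42.3 ± 21.7 with Pifithrin-alpha (exact permutation p 0.8). The median of these markers changed sign under 3 of 20 alternatives, and Slc17a6, the most abundant, was higher with Pifithrin-alpha. The red blood cell and vascular sums were higher with MW150, at 1225 and 64.5 against 848 and 56.1. Adjusted by Benjamini-Hochberg over the 9 library measures compared, no exact permutation p was under 0.51. No defining microglial marker was at 0 in the MW150 libraries, and 1 was in the Pifithrin-alpha libraries, Cd68 in Pifithrin-alpha 2.

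**Figure D4:**
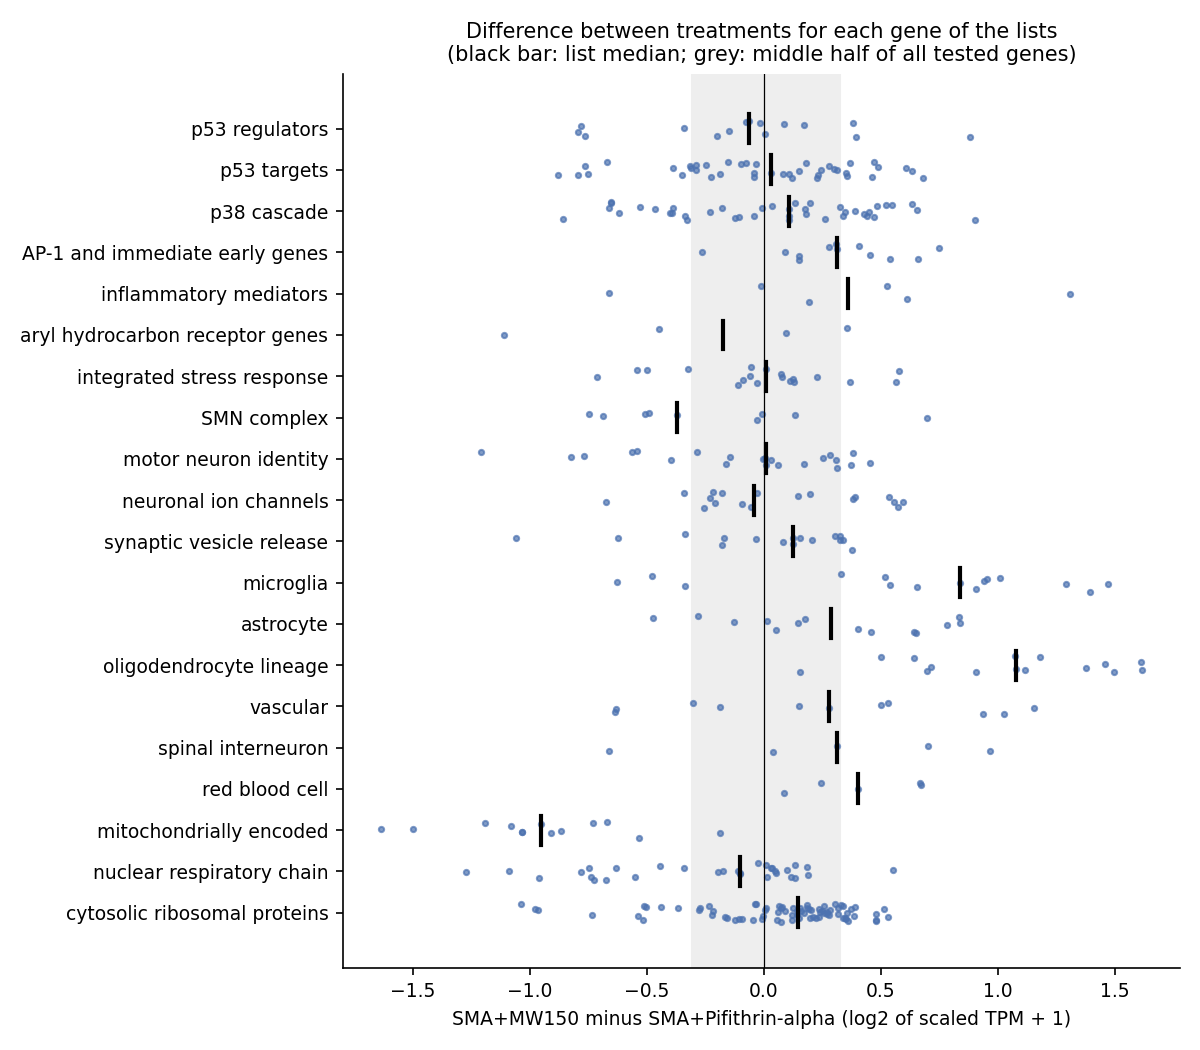
Each point is a tested gene of a list (y axis), at MW150 minus Pifithrin-alpha in log2 units (x axis); black bars are list medians and the grey band runs between the quartiles of all tested genes. The medians of the oligodendrocyte lineage (1.08) and microglia (0.84) lie furthest right, that of the mitochondrially encoded genes (-0.95) furthest left, and those of p53 targets (0.03) and motor neuron identity (0.01) near zero.

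Genes of the mitochondrial genome, which encode core subunits of the respiratory chain, were lower with MW150 for all 13 tested, with a median of -0.95. Without Pifithrin-alpha 3 the median was -0.30 and 2 of the 13 were higher with MW150. The nuclear genes of the same complexes had a median of -0.10 over 31, and of -0.02 without that library. Of the 31, 7 had an unadjusted p under 0.05, each lower with MW150, in the full set of libraries, beside 5.3% of all tested genes. Cytosolic ribosomal protein genes leaned the other way by a small amount: 53 of 78 were higher with MW150, with a median of 0.15, and of 0.15 without Pifithrin-alpha 3. Their groups did not overlap for 19 genes with MW150 above and for 0 with MW150 below, beside 7.86% and 6.81% of all tested genes. Rps10, a small subunit protein, read 224, 201 and 232 with MW150 and 152, 137 and 166 with Pifithrin-alpha (difference 0.53, interval 0.03 to 1.03, unadjusted p 0.0395, adjusted p 0.58).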

How the data were processed

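Poly(A) RNA of laser-captured motor neurons was sequenced in 15 libraries, 3 per group. The authors deposited TPM per gene from kallisto 0.44.0, per the submitters' processing notes, which also name DESeq2, GRCm38.p6 and mm10; the role of each is not given in the sources used here. TPM keeps no depth, so read numbers are unknown. Of 36144 symbols 35933 (99.4%) matched GENCODE M21 (GRCm38), from which positions come; the authors' annotation release was not given in the sources used here.

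From the deposited TPM, genes at 1 TPM or more in at least 3 of 15 libraries were kept (15425), scaled by median-of-ratios factors over 14180 genes, and transformed as log2(scaled TPM + 1). limma 3.58.1 (R 4.3.3) fitted a mean per group with a trended prior, two-sided, with Benjamini-Hochberg adjustment. The main contrast, MW150 minus Pifithrin-alpha, equals the difference of their effects against SMA. The fit was tested on simulated data.

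The members and the 20 gene lists were chosen with earlier results of these data known. Named genes are the 10 with the smallest p in each direction, at most 8 called genes of each shared contrast, the extreme and most abundant members of each list, fixed p53, p38 and motor neuron genes, and the extremes of the SMA set; other genes were named after their values were seen. Alternatives changed scaling, filter, pseudocount, weights, mitochondrial share, groups fitted and libraries. Equal replicate numbers were not treated as pairs in the main fit.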

Additional observations from a re-analysis of the deposited data

How the results depend on the processing

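No gene was called between MW150 and Pifithrin-alpha under any alternative except a fit of the 6 treated libraries alone, which called 1, Gm13603, whose place among the tested genes rests on the MW150 libraries in which it was high. For the mean of both treatments against SMA the number called was 2 with no filter on low values, 0 with a filter at a mean of 5 TPM, which leaves out Traj45, and 2 in a fit of only the groups compared. Against WT it was 17 with no filter, of which 15 were among the 35, 51 with the mitochondrial share as a term, and 21 to 40 when 1 library was left out; the cause was not tested. Mdm2 lost its call without WT 2 (adjusted p 0.0612), Fas without WT 1 (0.0527), and Pmaip1 without any of 5 single libraries. Omitting Pifithrin-alpha 2 and 3, added after seeing the data, turned the sign of mt-Co3 (0.17), Ndufa4 (0.10) and Rps23 (0.012). Of 97 named genes tested between the treatments, 42 had an unadjusted p under 0.05, and 29 changed sign under at least 1 alternative, 3 of them from those 42. The replicate block gave 0, 1 and 36 calls in the 3 contrasts. Same-numbered treated samples correlated at -0.12 to 0.03 after group means were removed. With 3 libraries per group these values cannot decide whether the numbers pair the samples.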

Other observations

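Gm13603, a processed pseudogene (chr2:67765977-67766059, plus strand) named after its values were seen, had the smallest unadjusted p between the treatments. It read 12.1, 14.3 and 12.2 scaled TPM with MW150 and 13.5 in WT 3, and was listed at 0 in the other WT libraries and in all SMA and Pifithrin-alpha libraries. It reached the filter through the MW150 libraries and WT 3, so its p is no evidence for a difference. Pseudogene values are uncertain where reads can be split with a parent gene.

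The Y-linked gene Ddx3y, a helicase, read 18.0, 0.0953 and 16.4 scaled TPM with MW150 and 15.3, 21.6 and 29.6 with Pifithrin-alpha, and Eif2s3y, a translation factor subunit, read 64.8, 0.0386 and 50.7 with MW150 and 55.8, 82.3 and 102 with Pifithrin-alpha. MW150 2 was near zero for both genes, as were WT 3 (0.169 and 0.0280), SMA 2 (0.0133 and 0.861) and SMA 3 (0.161 and 0), so the groups compared were not balanced in these genes.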
